A study of Akebia trifoliata with 9 samples.

Results

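The set described here holds 68 of the 82321 assembled genes measured in leaves of Akebia trifoliata, a woody vine, and its members were high under simulated acid rain and back near the untreated level when curcumin was given as well. They were chosen on TPM, a length-corrected measure of how much of a library's transcripts a gene provides, scaled to 1000000 per library. A member had its lowest acid rain value above the highest of the other 6 libraries and an acid rain mean of at least 5 TPM. Its acid rain mean plus 1 was at least 2 times the larger of the other 2 group means plus 1, and those other means plus 1 lay within 1.5-fold of each other. All 3 groups entered this choice, so the differences between groups are given as a description of the members and carry no test of their own. A ceiling of 300 members was not reached.

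The 9 libraries were made from total RNA of leaves after 28 days of treatment, 3 per group. Control plants were irrigated and sprayed with distilled water. In CUR0 the leaves were sprayed with simulated acid rain at pH 2.0 and the plants had no curcumin, and in CUR50 the plants had the same spray and curcumin at 50 µmol/L through the roots. No group received curcumin without acid rain, and the labels do not say how the curcumin was dissolved. The labels call the libraries of a group replicates but do not make clear how single plants were assigned to them, so the SDs cover the scatter of libraries, which can be technical as well as biological.

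Acid rain lowers the pH at the leaf surface, damages the cuticle and the cells below it, and is known to bring oxidative stress and changes in photosynthesis and defence. Plants answer such stress by raising transcripts for detoxification, repair and signalling, and many of these transcripts fall again when the stress is relieved. Curcumin, the yellow polyphenol of turmeric, is known as an antioxidant. The genes of this set carry only identifiers of the kind the Trinity assembler writes, and none of the 82321 identifiers matched the 32005 genes of the RefSeq table for the Akebia trifoliata assembly ASM1797944v1. What the members encode is therefore not stated, no sequence of them was used here, and lists of genes by function or cell type could not be applied. The RNA came from whole leaves, so a lower share of cells that express a gene and less of its RNA per cell cannot be told apart.

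The members took up a small part of the leaf transcriptome. The 68 genes together accounted for 0.306% ± 0.023 of the TPM of a CUR0 library, beside 0.0567% ± 0.0136 in Control and 0.0598% ± 0.0353 in CUR50 (SD, n = 3). By library the sums were 433, 706 and 563 TPM in Control replicates 1, 2 and 3, and 2993, 2872 and 3311 TPM in CUR0 replicates 1, 2 and 3. In CUR50 replicates 1, 2 and 3 they were 395, 1005 and 393 TPM. The CUR0 sums were high in every library, and CUR50 replicate 2 stood above the other CUR50 libraries and above all Control libraries.

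One gene, the most abundant member, accounted for most of that unevenness. Without it the sums over the other 67 members were 351, 420 and 396 TPM in Control and 395, 454 and 393 TPM in CUR50. The same sums were 1517, 1579 and 1550 TPM in CUR0. The means were then 389 ± 35 TPM in Control, 1549 ± 31 TPM in CUR0 and 414 ± 35 TPM in CUR50 (SD, n = 3), so that the Control and CUR50 sums differed by less than the spread between libraries and their ranges overlapped.

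**Figure D1:**
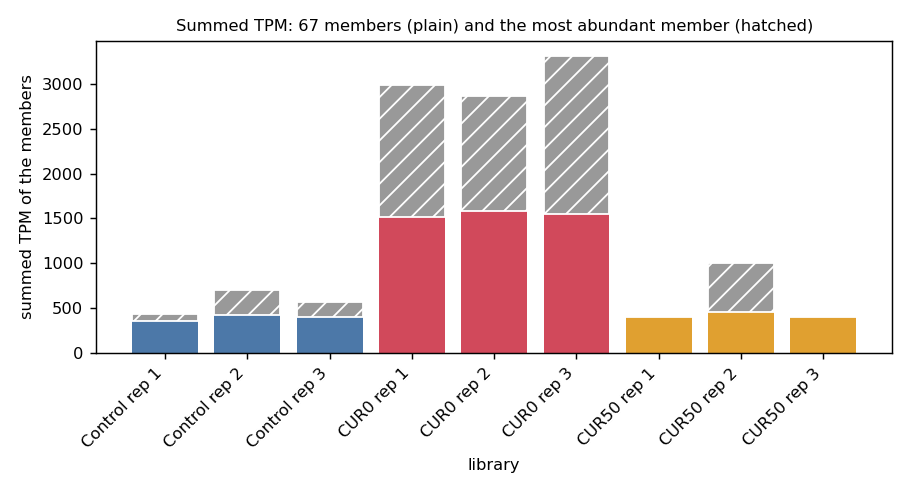
Summed TPM of the members in each of the 9 libraries, with the 67 less abundant members as plain bars and the most abundant member hatched on top. The plain bars lie between 1517 and 1579 TPM in CUR0 and between 351 and 454 TPM in all Control and CUR50 libraries, while the hatched part is absent from CUR50 replicates 1 and 3.

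The 4 identifiers singled out are those 2 with the largest ratio of the CUR0 mean plus 1 to the larger of the other means plus 1, and, of the rest, those 2 with the highest CUR0 mean. The largest ratio, 14.8, belonged to TRINITY_DN4408_c1_g1. This gene was at 5.30, 7.67 and 10.5 TPM in Control replicates 1, 2 and 3 and at 133, 115 and 141 TPM in CUR0. In CUR50 it was at 1.95, 6.57 and 7.64 TPM. All CUR0 libraries were high, CUR50 replicate 1 was the lowest of the 9 libraries, and the Control and CUR50 values overlapped. Its group means were 7.81 ± 2.59, 130 ± 13 and 5.39 ± 3.02 TPM (SD, n = 3), which gave differences of 3.93 for CUR0 minus Control and -4.50 for CUR50 minus CUR0 on the log2(TPM + 1) scale.

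The second largest ratio, 14.4, was that of TRINITY_DN11981_c0_g1, which was low in Control and in CUR50. It stood at 0.44, 0.41 and 0.70 TPM in Control, at 26.5, 14.2 and 21.7 TPM in CUR0, and at 0.16, 0.28 and 0.41 TPM in CUR50. The means were 0.517 ± 0.159, 20.8 ± 6.2 and 0.283 ± 0.125 TPM (SD, n = 3). Every Control and CUR50 library was under 1 TPM and every CUR0 library above 10 TPM. The differences on the log2(TPM + 1) scale were 3.81 and -4.05, and since the pseudocount of 1 exceeds the low values they understate the change. With a pseudocount of 0.1 they were 5.07 and -5.78.

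The most abundant member, TRINITY_DN20639_c0_g1, fitted the pattern by its means but not library by library. It was at 81.9, 286 and 167 TPM in Control and at 1476, 1292 and 1761 TPM in CUR0. In CUR50 it was listed at 0 in replicates 1 and 3 and stood at 551 TPM in replicate 2. No CUR50 library lay within the Control range, and only the average of a value above it and of values at 0, 184 TPM, came close to the Control mean of 178 TPM. An exact 0 in such files can be a failed estimate, and the TPM table does not tell the cases apart. Leaving out any 1 of the CUR50 libraries took this gene out of the set.

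The other abundant gene, TRINITY_DN3055_c0_g1, had the most even values of the 4. Control replicates 1, 2 and 3 were at 102, 110 and 116 TPM, CUR0 at 224, 246 and 246 TPM, and CUR50 at 95.6, 105 and 105 TPM. The means were 109 ± 7, 239 ± 13 and 102 ± 5 TPM (SD, n = 3), and the ratio, 2.17, was close to the minimum of 2. The CUR0 libraries stood clear of all others, and the Control and CUR50 libraries overlapped. TRINITY_DN3055_c0_g1 and TRINITY_DN11981_c0_g1 met the rule again whichever 1 of the 9 libraries was left out. TRINITY_DN4408_c1_g1 did so in 6 of the 9 cases and was lost without Control replicate 1 or CUR50 replicate 2 or 3.

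**Figure D2:**
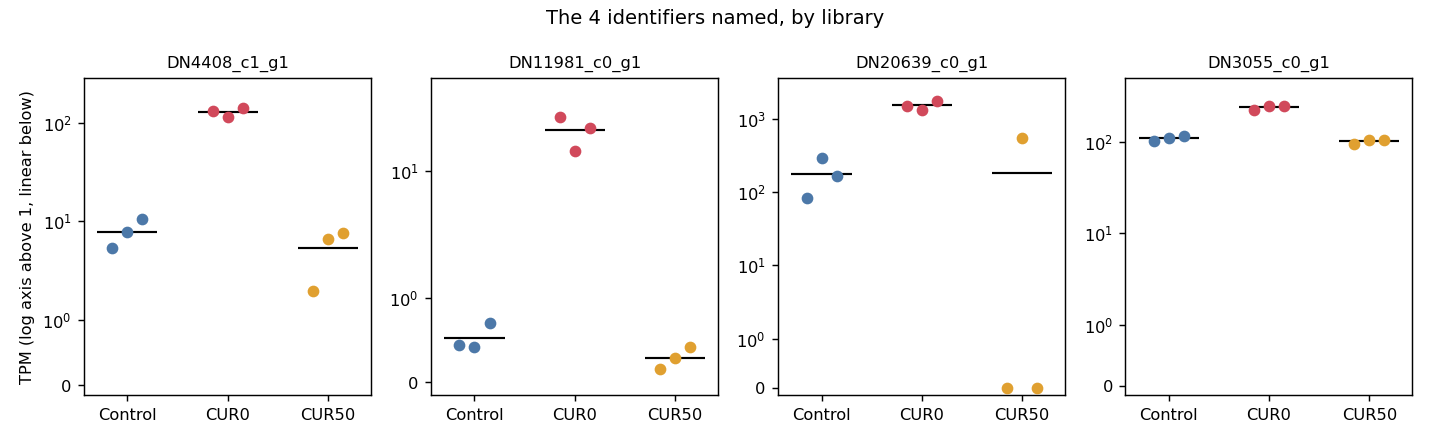
TPM of the 4 identifiers in each library, by group, with replicates 1 to 3 from left to right and a line at the group mean; the axis is logarithmic above 1 TPM and linear below. The CUR0 points lie above all others in each panel, and for DN20639_c0_g1 the CUR50 points are split between 0 and 551 TPM.

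The members differed widely in their level in Control and CUR50. They were grouped by the mean over the 6 Control and CUR50 libraries. In 10 of the 68 the gene was listed at 0 in all 6. In 11 this mean was above 0 and under 1 TPM, in 31 it was from 1 to under 5 TPM, and in 16 it was 5 TPM or more. The classes under 5 TPM were of similar, modest abundance at their peak, with median CUR0 group means of 6.94, 7.94 and 7.43 TPM.

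In the class listed at 0 the CUR0 group means ran from 5.58 to 12.0 TPM, with a median of 6.94 TPM. Single CUR0 values ran from 1.48 to 18.5 TPM, so several of these genes were uneven within CUR0. The member with the widest spread was at 3.62, 18.5 and 1.93 TPM in CUR0 replicates 1, 2 and 3. The steadiest, by contrast, was at 7.29, 7.38 and 6.23 TPM. Both were picked for description after their values were seen. No fold change is given for this class, because a listed 0 sets no level and the depth behind TPM values is unknown.

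In the class above 0 and under 1 TPM the group means had medians of 0.503 TPM in Control, 7.94 TPM in CUR0 and 0.490 TPM in CUR50. In the largest class, the 31 genes from 1 to under 5 TPM, they were 2.14, 7.43 and 1.83 TPM. In the 16 genes at 5 TPM or more they were 12.5, 70.9 and 16.5 TPM. The median ratio was 5.58 in the class above 0 and under 1 TPM, 2.47 in the class from 1 to under 5 TPM and 2.51 in the class at 5 TPM or more. The requirement of at least 5 TPM in CUR0 ties a low level in the other groups to a large ratio, so the larger ratios under 1 TPM follow in part from the choice of members.

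Across all 68 genes the median CUR0 minus Control difference was 1.90 on the log2(TPM + 1) scale, with a range from 1.03 to 3.93. The median over all 31754 genes tested was -0.09. For CUR50 minus CUR0 the members had a median of -1.94 and a range from -7.51 to -1.09, beside 0.12 over all genes tested. The lower end is TRINITY_DN20639_c0_g1 alone and rests on its listed zeros in CUR50: without CUR50 replicate 1 or 3 its difference was -6.00, and without replicate 2 it was -10.5. The next lowest member was TRINITY_DN4408_c1_g1 at -4.50. Scaling the libraries by the median of ratios moved that 0.12 to 0.01, a shift far smaller than the difference of any member.

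**Figure D3:**
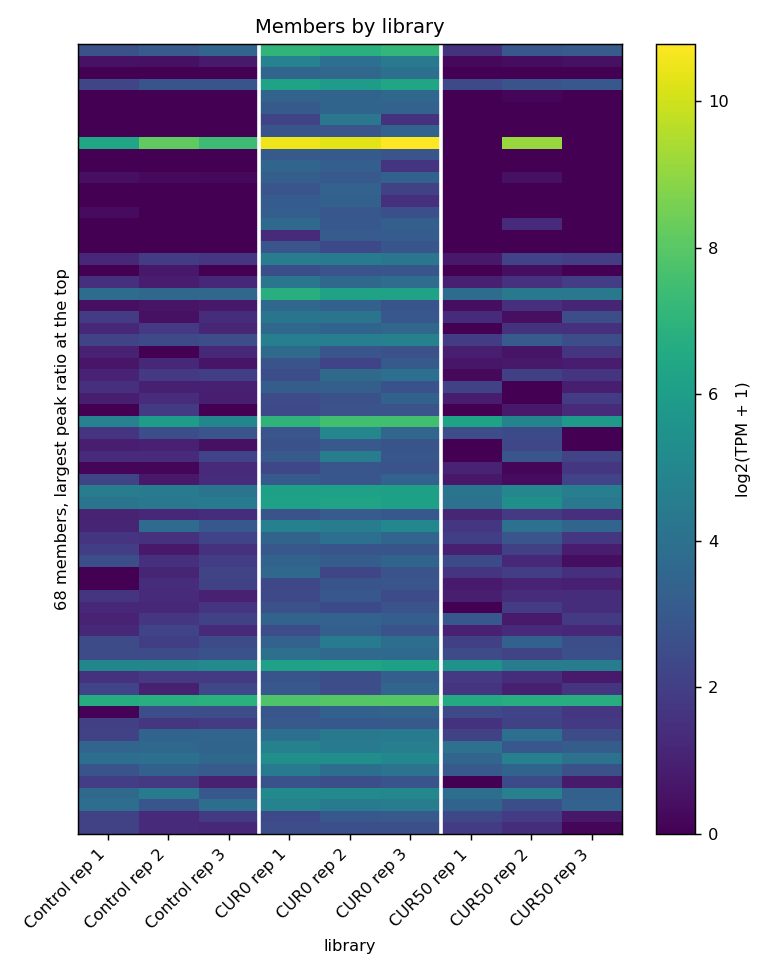
Expression of the 68 members, 1 row per gene ordered by ratio with the largest at the top, in the 9 libraries; colour gives log2(TPM + 1). The upper rows are dark in Control and CUR50, including the 10 genes listed at 0 there, and the lower rows show smaller steps of a ratio near 2; the bright row is the most abundant member.

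The size of the step was also set beside a test fitted on the whole table, limma on log2(TPM + 1) over the 31754 genes that reached 1 TPM in 3 or more libraries. All 68 members passed this filter, but 15 of them only through the CUR0 libraries and so could not have entered without being high there. At a Benjamini-Hochberg adjusted p under 0.05, 46 of the 68 members were called higher in CUR0 than in Control, where 2.96% of all genes tested were called higher. In CUR50 against CUR0, 43 were called lower, beside 2.20% of all genes tested, and 42 were called in both comparisons. These comparisons share the CUR0 libraries and were used to choose the members, so nothing is read from the counts beyond how many members the test reaches. In all, 232 genes were called higher in CUR0 than in Control and lower in CUR50 than in CUR0.

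These counts, and the shares over all genes tested, rest on few libraries. Members called higher in CUR0 than in Control numbered 28 when Control replicate 1 was left out and 30 when Control replicate 3 was. Of all genes tested, 1.07% and 0.99% were called higher in these fits. Members called higher numbered 21, 16 and 18 without CUR0 replicate 1, 2 or 3, beside 1.37%, 1.21% and 0.89% of all genes tested. Members called lower in CUR50 numbered 17, 5 and 4 without CUR0 replicate 1, 2 or 3, beside 0.93%, 0.06% and 0.03%. They numbered 28 without CUR50 replicate 3, beside 0.92%, and 15 with only the 6 libraries compared, beside 0.42%. Without a CUR0 library 53 of the 68 members passed the filter.

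The rule itself bounded how far the CUR50 mean could lie from the Control mean. The CUR50 mean was higher than the Control mean in 29 members, lower in 29 and equal, at 0, in 10. The ratio of the CUR50 to the Control mean, each plus 1, had a median of 1.00 and ran from 0.715 to 1.49, within the limits of the rule. It lay within 1.2-fold in 40 of the 68, of which 10 were listed at 0 in all Control and CUR50 libraries. Where the mean over the 6 libraries was under 1 TPM, the added 1 holds this ratio near 1, and it lay within 1.2-fold in 17 of 21 members. At 1 TPM or more it did so in 23 of 47. In 1 member all CUR50 values were above all Control values and in 0 members all were below, where the groups did not overlap in 32.0% of all genes tested. limma called 0 members different between CUR50 and Control at an adjusted p under 0.05, beside 12.6% of all genes tested. At an unadjusted p under 0.05 it called 1 member, and the share over all genes at that threshold is not given. The low counts follow from the rule's bound. Without CUR50 replicate 1 or 2 the count at the adjusted threshold was 2 and 1, beside 15.3% and 16.2% of all genes tested.

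The CUR50 libraries differed in where the members lay beside the Control range. Of the 68 members, 26 (38.2%) lay above the highest Control value in CUR50 replicate 2. The count was 7 (10.3%) in replicate 1 and 15 (22.1%) in replicate 3. Members below the lowest Control value numbered 22 (32.4%) in replicate 1, 12 (17.6%) in replicate 2 and 13 (19.1%) in replicate 3. Replicate 2 was the highest of the CUR50 libraries in 31 members, replicate 1 in 12 and replicate 3 in 14. Among all genes tested, 30.1%, 40.0% and 44.0% lay above the Control range in CUR50 replicates 1, 2 and 3, and 39.3%, 25.8% and 27.3% below it. The share of members above the range in replicate 2 was thus close to that of all genes. The rule also bounded the CUR50 mean of the members, so these counts describe them and carry no test. Replicate 1 was thus the lowest library for the members and for all genes, whereas the members were highest in replicate 2 and all genes in replicate 3.

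Seen from the peak, 15 members in CUR50 replicate 2 were within 2-fold of their CUR0 mean, counting TPM plus 1, against 8 in replicate 1 and 3 in replicate 3. The same count was 10, 7 and 7 in Control replicates 1, 2 and 3. The SD of the median member within a group, on the log2(TPM + 1) scale, was 0.54 in CUR50, 0.31 in Control and 0.27 in CUR0. For all genes tested these medians were 0.32, 0.18 and 0.21. The wider spread in CUR50 was shared by the whole table. The SD was larger in CUR50 than in Control in 41 of the 58 members above 0 in a Control or CUR50 library, 70.7%, and in 70.4% of all genes tested. Correlations across genes between libraries ran from 0.895 to 0.919 within CUR50, 0.947 to 0.951 within Control and 0.944 to 0.950 within CUR0.

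Whether genes of this kind keep the pattern in libraries that did not choose them was read by leaving libraries out. The rule was applied without replicate 1 of each group, then without replicate 2, then without replicate 3, and the left-out libraries were read each time. Replicate numbers name the sets and are not said to pair libraries. The rule chose 84, 119 and 102 genes, of which 47, 48 and 47 were among the 68 members.

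In the left-out libraries the CUR0 value plus 1 was at least 2 times both other values plus 1 in 40 of 84, 52 of 119 and 54 of 102 genes, or 47.6%, 43.7% and 52.9%. The mean was 48.1% ± 4.6 (SD over the 3 sets, which overlap in genes and share libraries in the choice). Over every gene whose mean in the CUR0 libraries used was 5 TPM or more, the shares were 2.01%, 1.53% and 1.44%. The left-out CUR0 library was simply the highest of the 3 in 75.0%, 73.1% and 78.4% of the chosen genes, beside 31.2%, 17.5% and 14.1% of all. More than 4 in 10 of the chosen genes thus showed the full step again in each set, and the others fell short of it in a single library per group. With 1 left-out library per group in a set there is no replicate, and no test is given.

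The rise and the return were not equally repeatable in every set. The left-out CUR0 value was at least 2 times the left-out Control value, each plus 1, in 52 of 84, 81 of 119 and 76 of 102 genes. It was at least 2 times the left-out CUR50 value in 52, 58 and 61 of them. Among all genes of at least 5 TPM the shares were 6.60%, 4.26% and 4.87% against Control and 6.42%, 3.27% and 3.70% against CUR50. The gap between the counts was widest in the second set, which reads CUR50 replicate 2, the library in which the members were also highest. The median ratio of CUR0 to CUR50 was 2.50, 1.88 and 2.33 in the 3 sets and that of CUR0 to Control 2.95, 2.74 and 2.80.

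**Figure D4:**
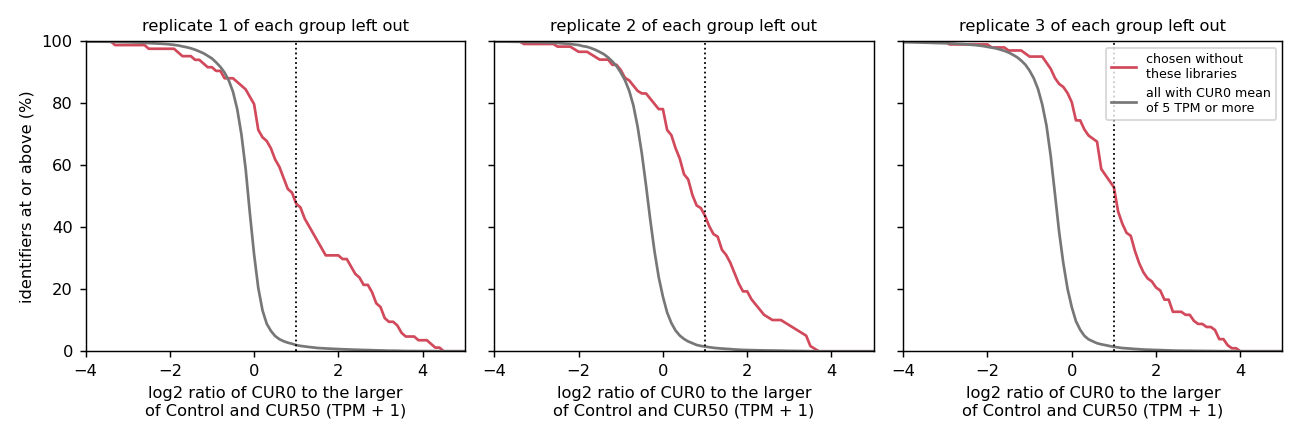
Share of genes (vertical axis, %) whose left-out CUR0 value reaches a given ratio to the larger of the left-out Control and CUR50 values (horizontal axis, log2 of TPM + 1), for genes chosen on the other 6 libraries and for every gene whose CUR0 mean was 5 TPM or more. At the dotted line, a ratio of 2, the chosen genes stand at 47.6%, 43.7% and 52.9% and all genes at 2.01%, 1.53% and 1.44%.

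Trinity groups assembled genes that share sequence into clusters, and the reads of a cluster may be divided among its members by the estimation. Of the 68 members, 34 were alone in their cluster, 50.0% beside 47.5% of all genes tested. The other 34 lay in 33 clusters of up to 6 identifiers. A single cluster held more than 1 member. Its first member was at 3.6, 4.2 and 4.79 TPM in Control, at 23.7, 23.2 and 25.7 TPM in CUR0 and at 2.63, 7.54 and 4.88 TPM in CUR50. The other was at 22.5, 20.3 and 16.8 TPM in Control, at 68.4, 70.9 and 68.7 TPM in CUR0 and at 16.8, 30.7 and 23.4 TPM in CUR50. Both were even within Control and CUR0, and both were highest in replicate 2 within CUR50.

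The clusters held 50 further identifiers that were not members, here called mates, and 34 of them passed the filter. The rule did not choose the mates, though they may share reads with the members. In CUR0 against Control limma called 3 of the 34 mates higher and 2 lower (adjusted p under 0.05), beside 2.96% and 5.30% of all genes tested. In CUR50 against CUR0 it called 4 lower and 0 higher, beside 2.20% and 2.57% of all genes tested. At an unadjusted limma p under 0.05, 5 mates were lower and 4 higher in CUR50 than in CUR0. At that threshold 6 were higher and 4 lower in CUR0 than in Control. The shares over all genes tested at the unadjusted threshold are not given, so nothing is read from these counts. Most of the 34 mates did not pass the adjusted threshold in either comparison. Array weights per group gave 5 mates higher in CUR0, beside 5.86% of all genes tested. Leaving out any 1 Control or CUR0 library gave 1, beside 0.89% to 1.37%. Mates called lower in CUR50 numbered 2 with no filter or with array weights, and 1 with only the 6 libraries compared. They numbered 2 without any 1 Control library or CUR0 replicate 1, 0 without CUR0 replicate 2 or 3, and 1 without CUR50 replicate 3. Over all genes tested, the share called lower in CUR50 ran from 0.03% to 1.42% in these fits.

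Among the mates called, the largest step was in the partner of a member from the class listed at 0. This partner, picked out after its values were seen, was at 0.69, 1.5 and 0.32 TPM in Control, at 146, 128 and 101 TPM in CUR0 and at 0.65, 10.8 and 0.42 TPM in CUR50. It differed by 6.13 between CUR0 and Control (limma adjusted p = 0.00227) and by -5.37 between CUR50 and CUR0 (adjusted p = 0.0117) on the log2(TPM + 1) scale. It failed only the condition of a return within 1.5-fold, and met the rule when CUR50 replicate 2 was left out. The mate of TRINITY_DN11981_c0_g1 was also called in both comparisons, at means of 0.0567 ± 0.0462 TPM in Control and 1.77 ± 0.47 TPM in CUR0 (SD, n = 3, limma adjusted p = 0.00968), and CUR50 was listed at 0 throughout (limma adjusted p = 0.0188). This mate reached 1 TPM only in the CUR0 libraries. It could therefore not have been tested without being high there, and nothing is read from its calls.

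Other mates went against their member. In a cluster of 3, the member was listed at 0 in all Control libraries, at 9.83, 10.1 and 11.3 TPM in CUR0 and at 0, 0.10 and 0 TPM in CUR50. A mate, picked out after its values were seen, was at 9.54, 7.88 and 7.38 TPM in Control, at 3.11, 2.00 and 2.31 TPM in CUR0 and at 3.48, 2.99 and 2.16 TPM in CUR50. This mate was thus lower in CUR0 than in Control by 1.42 (a difference of -1.42 in log2(TPM + 1), limma adjusted p = 0.00467) and stayed low in CUR50. The other mate of that cluster was not called. It was at 7.25, 10.8 and 9.11 TPM in Control and at 7.09, 7.84 and 6.92 TPM in CUR0 (a difference of -0.27, limma adjusted p = 0.476). Whether reads passed between such sequences was not tested.

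When TPM was summed per cluster, 58 clusters met the rule. They included 44 of the 67 clusters that held a member. Of these 44, 34 held no other identifier, so their sum is the member itself and met the rule by construction. Of the 33 clusters in which a member had company, only 10 met it. A further 14 clusters that met the rule held no member. In the 33 clusters where a member had company, the summed CUR0 mean was the highest of the 3 group means in 31. Their median ratio was 1.77, and the ratio was under 1.5 in 10. Each of these sums includes a member chosen for its high CUR0 mean, so the values follow in part from the choice and carry no test. In 8 of the 33 the member supplied under 50% of the cluster's TPM in CUR0.

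**Figure D5:**
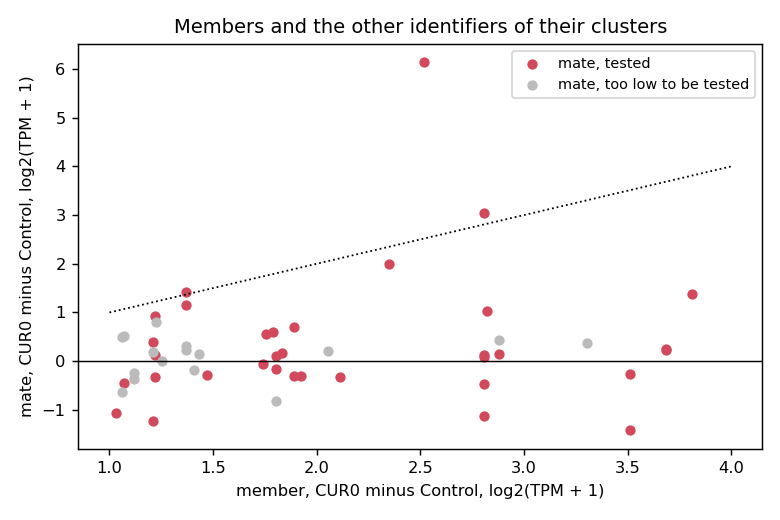
CUR0 minus Control difference in log2(TPM + 1) of each mate (vertical axis) against that of the member of its cluster (horizontal axis), with mates too low to be tested in grey. The dotted line marks equal differences; few mates reach it and many lie near 0, with 1 mate at 6.13.

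The edge of the set was densely filled. The smallest ratio among members was 2.00, and 397 genes failed only this condition, the nearest at 1.95. The lowest CUR0 mean among members was 5.09 TPM, and 243 genes failed only the minimum of 5 TPM, the nearest at 4.88 TPM. The condition of a return within 1.5-fold alone kept out 49 genes, 37 with CUR50 above Control and 12 with CUR50 below, where the farthest member was at 1.49. The condition of no overlap alone kept out 11. The 68 are therefore a section through a continuous range, with 311 genes at a minimum of 1 TPM and 30 at 10 TPM.

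The same rule was also turned on the other groups. With Control as the peak and CUR0 and CUR50 alike, 325 genes met it, and with CUR50 as the peak and Control and CUR0 alike, 141. A mirrored rule for a dip, with the other groups at 5 TPM or more, was met by 162 genes for Control, 44 for CUR0 and 71 for CUR50. Genes in which CUR0 stood alone were the fewest in both directions, and genes in which the untreated leaves stood alone the most. The counts use the same libraries and were not tested against each other.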

How the data were processed

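The authors deposited TPM values with 2 decimals for 82321 genes and 9 libraries, and each column summed to between 999997 and 1000003. Tools listed in the submitters' processing notes are fastp, Bowtie2, RSEM and DESeq2, with no version; how the assembly was made and filtered is not given in the sources. TPM keeps no read number, so the depth and counting error behind a value are unknown, and a rise of abundant genes lowers the shares of all others. Columns were matched to libraries by title, and 2 Control columns lack a letter of it.

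Members were found by the rule given in the results. limma (eBayes with trend) was fitted on log2(TPM + 1) to all 9 libraries, with a mean per group and 1 shared spread (6 residual degrees of freedom, prior 2.49), over the 31754 genes that reached 1 TPM in 3 or more libraries, with Benjamini-Hochberg adjustment of p-values. The planned test for counts was replaced by its form for TPM. The scripts were tested on simulated data. The 4 identifiers named are the 2 members of largest ratio and the other 2 of highest CUR0 mean, few because none has a gene name. The members, lists and tests were chosen with earlier results of these data known. Lists by gene name could not be tested. Analyses used R 4.3.3, limma 3.58.1, Python 3.11.15, pandas 2.3.3 and matplotlib 3.10.9.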

Additional observations from a re-analysis of the deposited data

How the results depend on the processing

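The number of genes that met the rule ran from 65 to 91 when 1 library was left out, and 24 of the 68 members met it in all 9 of these cases. It was 311 and 30 with a minimum CUR0 mean of 1 and 10 TPM, 36 with a ratio of 3, 45 with a tighter limit on the return and 106 with quantile normalization, which kept 66 of the members. It stayed within 1.5 times of 68 with a pseudocount of 0.1, a return within 2-fold, overlap allowed and median-of-ratios scaling. The 63 genes found with a pseudocount of 0.1 held only 56 of the members, and the 93 found with median-of-ratios scaling held 67. With TPM summed per cluster the count was 58, close in number but not in content. Of these, 34 were members alone in their cluster, which met the rule by construction, and 14 held no member. Only 10 of the 33 clusters in which a member had company met it.

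Leaving out 1 library gave from 16 to 53 members called higher in CUR0 than in Control. From 4 to 46 were called lower in CUR50 than in CUR0, and from 0 to 2 different between CUR50 and Control. In the same order, the shares over all genes tested ran from 0.89% to 4.83%, from 0.03% to 3.26% and from 3.04% to 16.2%. Leaving out 1 library also gave from 1 to 4 mates called higher in CUR0 and from 0 to 5 called lower in CUR50. Part of the loss without a CUR0 library comes from the filter, which 53 members then passed. With only the 6 libraries compared, 15 members and 1 mate were called lower in CUR50, beside 0.42% of all genes tested. With the replicate block it was 28 members and 2 mates, beside 0.51%. No filter and array weights per group gave 2 mates each, beside 0.41% and 0.97%. The weights also gave 5 mates higher in CUR0, beside 5.86%. The labels do not say whether the replicate numbers pair the libraries. Same-numbered libraries correlated between -0.04 and 0.09 in their deviations from the group means. A pairing that touched only some genes need not show in these values.

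The share of genes that kept the step in left-out libraries was 61.3% when a ratio of 1.5 was asked of them, and stayed within the spread of its sets with a pseudocount of 0.1, median-of-ratios scaling and no ceiling on the number of genes. The differences of the 4 named identifiers were also read in 72 alternatives. Their sign held in all, but the rule places every CUR0 value above all others. A left-out library or another pseudocount could therefore not reverse it, and nothing is read from the sign. In size, 67 stayed within the spread between libraries and 5 moved further. That spread was each gene's own. For TRINITY_DN20639_c0_g1, uneven in CUR50, a CUR50 minus CUR0 shift from -7.51 to -10.5 counted as within it. For the even TRINITY_DN3055_c0_g1 a shift from -1.22 to -1.33 counted as further. The count of 67 is therefore no measure of how steady the differences were. The sum without the most abundant member was chosen after seeing the data. TPM values give no depth, so values near 0 carry an unknown counting error.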
